A study of Mus musculus with 12 samples.

Results

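The response of the wild-type mouse hippocampal CA1 subfield to transient forebrain ischemia was measured on 6 of the 12 Affymetrix expression arrays of the study. The 3 arrays titled as wild-type ischemia were compared with the 3 titled as wild-type sham. Ischemia mice had 10 minutes of global cerebral ischemia followed by 3 hours of reperfusion, and control mice had sham surgery. For every array the CA1 tissue of 2 brains was pooled, frozen and extracted with Trizol, per the labels' protocols. Strain, age and sex were not given in the sources used. The other 6 arrays, 3 sham and 3 ischemia, came from SUMO-KD mice, which the sample titles call transgenic and which carry a knockdown of SUMO, a small protein that is joined to other proteins. They entered the choice of each gene's probe set, the estimate of the spread and the comparison of the genotypes. The labels describe the replicates as biological but do not say whether they were operated on separate days, so p-values measure the spread between these pools.

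Of 22690 probe sets on the array, 20393 listed a single gene symbol, and 12394 genes were measured by the probe set with the highest mean over all arrays. Values are deposited intensities, the linear brightness of a probe set, and are given in the order of replicates 1, 2 and 3. Changes are differences of log2(intensity + 32), ischemia minus sham, so that 1 stands for a 2-fold change and the change of dim genes is understated. Each adjusted p comes from limma's two-sided moderated test, with Benjamini-Hochberg adjustment across the 12394 genes. A gene is said to have risen or fallen only where its adjusted p was under 0.05, with the same sign, in the fit of all 12 arrays and in each of the 6 fits that left out 1 wild-type array.

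Loss of blood flow to the forebrain depolarises neurons and floods them with glutamate and calcium, and blood flow returns to tissue in which protein synthesis has stalled. Calcium and MAP kinase signals then act on transcription factors already present in the cell, such as CREB, SRF and heat shock factor, which switch on immediate early genes without new protein. Phosphorylation of the translation factor eIF2α favours translation of ATF4, which drives genes of amino acid supply and of recovery of translation. CA1 pyramidal neurons are known for their delayed death after such an insult, days after the blood flow has returned.

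The arrays resembled each other within a surgery more than between surgeries: the Pearson correlation over genes lay between 0.985 and 0.9934 in the 6 pairs of arrays of the same surgery and between 0.9701 and 0.9794 in the 9 pairs of different surgeries. The median intensity of an array was 141.4 to 162.3, and values under 32 made up 22.4% to 27.6% of each array. The 3′ to 5′ signal ratio, a sign of RNA integrity, was 1.54 to 1.72 for Actb and 0.785 to 0.834 for Gapdh on the wild-type arrays. For both of these mRNAs the ratios of the sham and the ischemia arrays overlapped. For 18S ribosomal RNA this ratio was 1.03, 1.34 and 1.43 on the sham arrays and 2.78, 2.50 and 2.28 on the ischemia arrays, which did not overlap. Control probe sets for 18S ribosomal RNA moved with surgery. The 3′ control read 6740.2, 5764 and 7569 on the sham arrays and 3539, 4127 and 3789 on the ischemia arrays, and the 5′ control read 6528, 4297 and 5295 against 1275, 1651 and 1659.6. The part of these differences in the results was not tested.

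After ischemia 709 genes rose (5.72% of 12394) and 495 fell (3.99%), 1204 in all (9.71%), and the rises were the larger changes. The median change was 0.87 among genes that rose and −0.57 among those that fell, beside −0.04 over all genes. At least 2-fold changes were found in 270 of the genes that rose and in 24 that fell. At least 4-fold rises numbered 49 and at least 8-fold rises 11, while 0 genes fell by 4-fold in limma's fit, in which 3883 genes had an unadjusted p under 0.05. In 45 of the genes that rose all 3 sham arrays lay below an intensity of 32. The 709 and 495 were chosen by adjusted p and sign in every fit, which favours genes whose ischemia and sham arrays do not overlap. Over all genes every ischemia array was higher than every sham array in 15.6% and lower in 19.5%. In the fit of all arrays alone, 1188 genes passed as higher (9.59%) and 1101 as lower (8.88%); the lower count was 714 when replicate 1 of the sham arrays was omitted, 732 when replicate 3 was, and 693 on omission of the first of the ischemia arrays. With the wild-type arrays alone in the fit, 432 genes rose and 150 fell.

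**Figure D1:**
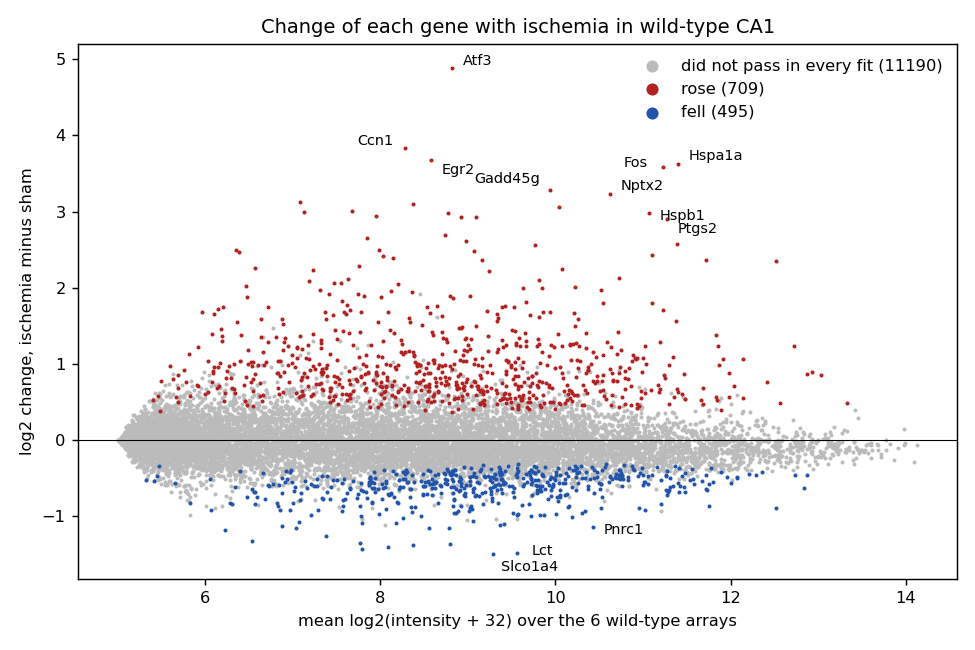
Each point is 1 of 12394 genes, with its mean log2(intensity + 32) over the 6 wild-type arrays on the x axis and its log2 change, ischemia minus sham, on the y axis. The 709 genes that rose (red) reach a change of 4.88, while the 495 that fell (blue) reach −1.51.

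Atf3, a stress-induced transcription factor of the bZIP class, had the largest change of all genes. Its intensity was 30.1, 78.7 and 52.6 on the sham arrays and 2515, 2511 and 2271 on the ischemia arrays. The ischemia arrays lay close together and far above every sham array, with a change of 4.88 (SE 0.18, adjusted p = 1.07e-07). Ccn1, a secreted matricellular protein, measured 47.7, 57.9 and 46.1 on the sham arrays and 1412, 1664 and 628 on the ischemia arrays, a change of 3.83 (SE 0.46). Ischemia replicate 3 was the lowest of the ischemia arrays and still over the sham arrays. Egr2, a zinc finger immediate early factor, had 70.3, 106 and 54.9 on the sham arrays and 1387, 1818 and 955 on the ischemia arrays (3.68, SE 0.24). Fos, a subunit of the AP-1 transcription factor, had 656, 732 and 599 on the sham arrays and 9483, 9796 and 6141 on the ischemia arrays (3.59, SE 0.24). In both Egr2 and Fos ischemia replicate 3 was the lowest ischemia array, as in Ccn1 and in the immediate early gene Ier2, which had 121, 135 and 115 on the sham arrays and 1352, 1452 and 870.4 on the ischemia arrays. Hspa1a, the inducible HSP70 chaperone, had 915, 695 and 622 on the sham arrays and 9707, 10065 and 8565 on the ischemia arrays (3.63, SE 0.17). Its probe set cannot be told from that of the near-identical copy Hspa1b with certainty.

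Gadd45g and Gadd45b, which encode growth arrest and stress signalling proteins, rose in near parallel. Gadd45g had 311, 270.4 and 269.7 on the sham arrays and 3121, 2586 and 3423 on the ischemia arrays (3.28, SE 0.19) and Gadd45b had 306, 423 and 285 on the sham arrays and 2925, 2888 and 3225 on the ischemia arrays (3.06, SE 0.14). All ischemia arrays of both genes lay above all sham arrays. A different order of the ischemia arrays was seen in other genes. Ptgs2, the inducible cyclooxygenase, had 811, 956 and 857 on the sham arrays and 6709.5, 5269 and 8757 on the ischemia arrays (2.91), and Hmox1, the inducible heme oxygenase, had 52.6, 65.1 and 62.7 on the sham arrays and 463, 476 and 732 on the ischemia arrays (2.65). Replicate 3 was the highest ischemia array for these genes and for Tnfrsf12a, the receptor of the cytokine TWEAK (70.7, 84.95 and 89.3 on the sham arrays and 856, 865 and 1118 on the ischemia arrays). Acan, the aggrecan core protein of perineuronal nets, had 129.98, 163 and 118 on the sham arrays and 1257, 546 and 1701 on the ischemia arrays (2.70, SE 0.30). Its ischemia arrays spread over a wide range, with replicate 2 the lowest, and all lay above the sham arrays.

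Over all 709 genes that rose, the median change against the sham mean was 0.871, 0.784 and 0.924 for ischemia replicates 1, 2 and 3. Replicate 2 was the lowest ischemia array in 401 of these genes and replicate 3 the highest in 370. The remaining members of the 20 largest rises were Nptx2, Rrad, Slc10a6, Cxcl1, Hspb1, Maff, Nfil3 and Chac1, with changes from 2.93 to 3.23. Slc10a6, a carrier of steroid sulfates, had 49.2, 56.7 and 21.1 on the sham arrays and 474, 599.7 and 588 on the ischemia arrays (3.01, SE 0.32), and every ischemia array exceeded every sham array.

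**Figure D2:**
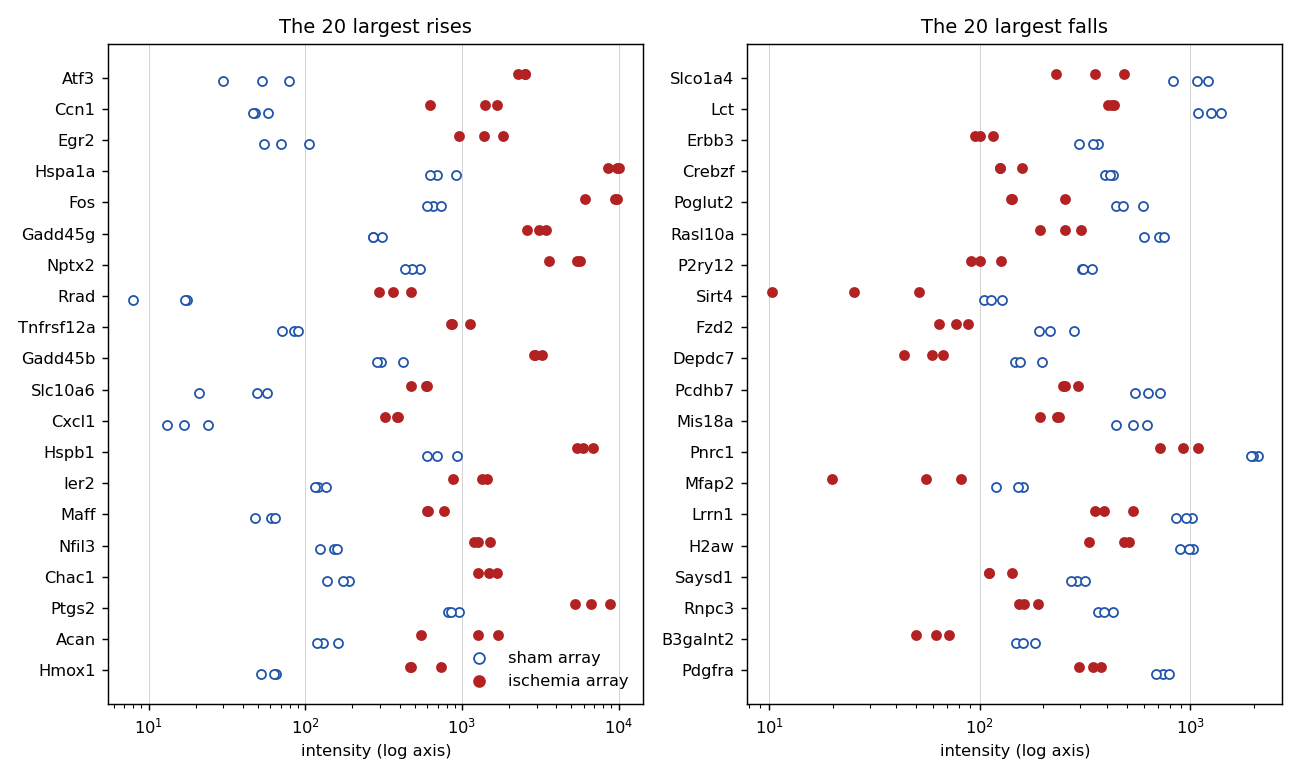
Intensity (log axis) of the 20 genes with the largest rises (left) and the 20 with the largest falls (right) on each wild-type array; open blue circles are the 3 sham arrays and filled red circles the 3 ischemia arrays. In every gene shown the 2 groups do not overlap, which was a condition of the choice. The left panel spans changes from 2.65 to 4.88 while the right panel spans −1.06 to −1.51.

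The 250 bases before the transcription start of 6 of the 10 largest rises are given below because they show which short motifs of stress-activated factors lie close to the start of these genes. Of the other 4, Nptx2 and Rrad had no entry, Egr2 had several and Tnfrsf12a held none of the stress-factor motifs searched, so the 6 were chosen for holding a motif. Sequences are from RefSeq, build GRCm38.p6, on the gene's strand and 5′ to 3′, and capitals mark matches to the motifs named after them.
Atf3 (chr1:191183334-191183583, minus strand): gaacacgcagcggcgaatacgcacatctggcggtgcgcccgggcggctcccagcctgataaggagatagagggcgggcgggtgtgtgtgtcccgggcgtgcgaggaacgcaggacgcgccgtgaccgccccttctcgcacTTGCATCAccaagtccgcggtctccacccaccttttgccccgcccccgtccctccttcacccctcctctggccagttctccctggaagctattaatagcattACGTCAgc
Ccn1 (chr3:145649986-145650235, minus strand): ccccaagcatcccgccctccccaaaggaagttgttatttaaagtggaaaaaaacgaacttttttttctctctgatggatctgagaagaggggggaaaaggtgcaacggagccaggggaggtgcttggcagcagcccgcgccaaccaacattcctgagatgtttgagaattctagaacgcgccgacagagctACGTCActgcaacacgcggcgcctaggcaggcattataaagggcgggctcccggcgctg
Fos (chr12:85473640-85473889, plus strand): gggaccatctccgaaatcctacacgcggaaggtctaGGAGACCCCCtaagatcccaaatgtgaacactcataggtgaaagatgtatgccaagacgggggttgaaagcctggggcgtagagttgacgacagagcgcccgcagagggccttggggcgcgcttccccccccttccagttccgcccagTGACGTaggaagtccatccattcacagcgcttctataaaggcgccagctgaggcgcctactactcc
Hspa1a (chr17:34972157-34972406, minus strand): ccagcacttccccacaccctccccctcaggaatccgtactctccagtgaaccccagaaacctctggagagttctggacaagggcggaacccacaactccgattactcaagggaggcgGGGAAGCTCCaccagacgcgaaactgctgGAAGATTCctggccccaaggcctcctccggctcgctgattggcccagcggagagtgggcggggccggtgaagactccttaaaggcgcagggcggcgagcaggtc
Gadd45g (chr13:51846425-51846674, plus strand): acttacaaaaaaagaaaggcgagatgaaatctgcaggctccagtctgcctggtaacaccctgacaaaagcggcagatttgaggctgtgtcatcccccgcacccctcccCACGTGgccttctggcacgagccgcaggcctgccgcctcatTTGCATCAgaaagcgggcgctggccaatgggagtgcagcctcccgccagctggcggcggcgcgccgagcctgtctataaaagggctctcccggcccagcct
Gadd45b (chr10:80929841-80930090, plus strand): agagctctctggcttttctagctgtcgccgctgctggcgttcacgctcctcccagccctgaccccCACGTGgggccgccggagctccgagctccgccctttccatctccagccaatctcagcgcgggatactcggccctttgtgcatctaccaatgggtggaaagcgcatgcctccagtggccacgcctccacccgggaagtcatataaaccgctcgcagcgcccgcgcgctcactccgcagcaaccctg
The letters TGACGT, the core of the cAMP response element (CRE), occurred on either strand 8 bases before the start of Atf3, 59 before that of Ccn1 and 66 before that of Fos. A composite C/EBP-ATF element (TGATGNAA) lay at −110 in Atf3 and −101 in Gadd45g. Hspa1a held a heat shock element (GAANNTTC) at −104 and a match to the NF-kB site at −133, and Fos held an NF-kB match at −214. An E-box (CACGTG) lay at −142 in Gadd45g and −185 in Gadd45b. Positions are those of the leftmost base of a match, counted from the start. These are letter matches only.

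Most measured members of the list of AP-1 and other bZIP factors rose. Of 24 listed and measured, 15 rose (62.5%, against 5.72% of all genes) and 0 fell, and the median change was 0.96 beside −0.04 over all genes; quantile normalization and centring on the median each gave 1 fall. Crebzf, a bZIP cofactor outside the list, fell and is described with the largest falls. After Atf3 and Fos, the largest changes were in Maff, a small Maf factor without an activation domain, and Nfil3, a repressor at D-box elements. Maff had 60.4, 63.8 and 47.9 on the sham arrays and 774, 594 and 608 on the ischemia arrays (2.94, SE 0.20). Nfil3 had 152, 159.8 and 125 on the sham arrays and 1190.2, 1501 and 1268 on the ischemia arrays (2.93, SE 0.19). Both genes were separated from sham on every array. Jun, Fosb, Fosl1, Cebpd, Cebpb, Junb, Jund, Mafk, Cebpa, Cebpg and Jdp2 also rose. The 9 that did not pass included Atf2, Atf7, Creb1 and Atf6, factors that are mainly controlled after transcription.

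Zinc finger and other activity-induced factors rose in 14 of 25 cases (56%, against 5.72% of all genes) with 0 falls (median 0.79). Besides Egr2 and Ier2, the largest changes were in Ier5 (856, 808 and 692 on the sham arrays and 3694, 3134 and 3735 on the ischemia arrays; 2.12, SE 0.13) and in Myc, a growth-promoting factor. Myc had 75.4, 72.4 and 58.9 on the sham arrays and 321, 320.1 and 331 on the ischemia arrays (1.82, SE 0.09), and its ischemia arrays lay within a narrow range above the sham arrays. Nab2, Nab1, Egr4, Egr1, Nr4a1, Sox11, Sox9, Sox4, Ier3 and Id3 rose too. Of 15 Kruppel-like and Sp factors, 5 rose (33.3%, against 5.72% of all genes) and 0 fell (median 0.39). Klf6 had 328, 336 and 244 on the sham arrays and 1278, 1235 and 709 on the ischemia arrays (1.69), Klf10 had 482, 611 and 462 on the sham arrays and 1991, 1492 and 1722 on the ischemia arrays (1.68), and Klf4 had 219, 175 and 181 on the sham arrays and 504, 569 and 352 on the ischemia arrays (1.16). In Klf6 and Klf4 ischemia replicate 3 was the lowest of the ischemia arrays, as in Fos and Egr2.

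Genes that shut off the same signals rose with them. Of 15 MAP kinase phosphatases and Sprouty/Spred proteins, which dampen the ERK, JNK and p38 pathways, 9 rose (60%, against 5.72% of all genes). Of these 15, 0 fell and 15 had a positive change (median 0.87). Dusp16, a phosphatase of JNK and p38, had 168, 240.5 and 192 on the sham arrays and 772, 874 and 835 on the ischemia arrays (1.90, SE 0.12). Spry2, an inhibitor of receptor tyrosine kinase signalling, had 1223, 1129 and 1093 on the sham arrays and 4127, 3616 and 4469 on the ischemia arrays (1.79, SE 0.14). The ischemia arrays of these genes stood apart from the sham arrays, as they did in Errfi1, a feedback inhibitor of the EGF receptor (1529, 1705 and 1345 on the sham arrays and 4770.1, 4035 and 4905 on the ischemia arrays; 1.56). Dusp2, Dusp1, Dusp14, Dusp6, Dusp8 and Dusp7 rose as well. Among 18 inducible kinases and pseudokinases 10 rose (55.6%, against 5.72% of all genes) and 1 fell (5.56%, against 3.99%), with a median of 0.57. Pim1, a constitutively active kinase controlled by its own abundance, had 67.3, 97.96 and 62.7 on the sham arrays and 475, 661 and 584 on the ischemia arrays (2.49, SE 0.17), and the pseudokinase gene Trib1 had 92.1, 54.6 and 49.04 on the sham arrays and 374, 477 and 307 on the ischemia arrays (2.11). Plk3 (1.42) and Stk40 (1.26), Pim3, Sik1, Trib3, Sgk1, Stk17b and Plk2 rose, and Dapk1, a death-associated kinase, fell.

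Effectors that act at synapses rose in 9 of 19 cases (47.4%, against 5.72% of all genes) with 0 falls (median 0.91). Nptx2, a secreted pentraxin that gathers AMPA receptors, had 539, 483 and 429.9 on the sham arrays and 5640.4, 3609 and 5442 on the ischemia arrays (3.23, SE 0.19). Rrad, a small GTPase that restrains calcium channels, was dim in sham tissue and had 17.7, 7.90 and 16.97 on the sham arrays and 294, 361 and 471 on the ischemia arrays (3.13, SE 0.15). Arc, which drives endocytosis of AMPA receptors, had 1280.3, 1118 and 837 on the sham arrays and 6229, 6012 and 7269.8 on the ischemia arrays (2.57, SE 0.17). No ischemia array of these genes overlapped a sham array. Gem, Rgs2, Bdnf, Rasl11b and Rgs4 also rose. Of 21 ionotropic glutamate receptor subunits and their auxiliary proteins, 1 rose and 1 fell (median 0.06), shares near those of all genes. Both were auxiliary subunits of AMPA receptors: Cacng5 had 334, 358 and 379 on the sham arrays and 632, 567 and 581 on the ischemia arrays (0.69), and Cacng8 had 156, 118 and 121 on the sham arrays and 58.1, 81.4 and 74.1 on the ischemia arrays (−0.67). For Cacng5 the mean of its probe sets did not pass (0.28, adjusted p = 0.148 by limma).

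Of 29 metabotropic and monoamine receptor genes 0 rose (against 5.72% of all genes) and 3 fell (10.3%, against 3.99%), with a median of −0.17. In 8 of the 29 every wild-type array lay below an intensity of 32. Htr1a, the serotonin 1A receptor, had 458, 457 and 321 on the sham arrays and 191, 217 and 148 on the ischemia arrays (−1.03, SE 0.18), and Chrm3, a muscarinic receptor, had 61.6, 69.7 and 52.4 on the sham arrays and 29.2, 7.23 and 17.1 on the ischemia arrays (−0.92). All ischemia arrays of Chrm3 lay below 32. The other fall was of P2ry12, a microglial gene described with that cell type. Second messenger regulators rose in 4 of 40 cases (10%, against 5.72% of all genes) with 0 falls (against 3.99%) and a median of 0.00. Of these 4, Rgs2 and Rgs4 were also counted among the synaptic effectors. Rgs2, which limits Gq signalling, had 1417, 1214 and 1258 on the sham arrays and 4682, 3591 and 4748 on the ischemia arrays (1.71), Gpr3, a receptor active without ligand, changed by 1.21 and Pde4b, a cAMP phosphodiesterase, by 1.06. Of 40 potassium channel genes 3 rose (7.5%) and 1 fell (2.5%), near the 5.72% and 3.99% of all genes (median 0.01). Kcnk3, a leak channel of the TASK class, had 68.5, 83.01 and 73.2 on the sham arrays and 285, 274 and 462 on the ischemia arrays (1.77, SE 0.18), with all ischemia arrays above sham. Kcns1 (0.90) and Kcna1 (0.47) rose and the beta subunit gene Kcnab1 fell (−0.72). Neuropeptide genes gave 1 rise of 27 (3.7%, against 5.72% of all genes), Chga (0.63), and 0 falls.

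A list of SRF and YAP target genes and of cytoskeletal genes gave 10 rises among 33 (30.3%, against 5.72% of all genes). It gave 1 fall (3.03%, against 3.99%) and a median of 0.21. SRF and YAP answer to actin tension and growth signals, and their activity was not measured. Ccn2, a relative of Ccn1, had 358, 435 and 230.3 on the sham arrays and 1116, 1109.7 and 1109.7 on the ischemia arrays (1.66), and Zyx, a focal adhesion protein, had 247, 235 and 254 on the sham arrays and 556, 489 and 531 on the ischemia arrays (1.005, SE 0.09). Every ischemia array of both genes exceeded every sham array. Srf itself, Vcl, Amotl2, Tpm4, Myh9 and Cnn3 rose, and Ccn3 fell. Among 35 growth factor ligands 7 rose (20%, against 5.72% of all genes) and 0 fell (median 0.15). Hbegf, a ligand of the EGF receptor, had 239, 233 and 272 on the sham arrays and 1257, 1209 and 1355 on the ischemia arrays (2.22, SE 0.11), all ischemia arrays lying close together. Inhba, the subunit of activin A, had 460.1, 354 and 395 on the sham arrays and 1641, 945 and 2092 on the ischemia arrays (1.81, SE 0.23), with ischemia replicate 2 the lowest. Pdgfa (0.96), Inhbb (0.88), Bmp2, Pdgfb and Hgf rose. Of 57 Wnt, Notch and BMP genes 8 rose (14%, against 5.72% of all genes) and 1 fell (1.75%, against 3.99%), with a median of 0.09. The inhibitory Smad gene Smad7 had 409, 501 and 419 on the sham arrays and 1400.00, 1341 and 1617 on the ischemia arrays (1.65). The Wnt receptor gene Fzd4 changed by 1.64, and its relative Fzd2 had 217, 281 and 191 on the sham arrays and 77.5, 64.02 and 87.5 on the ischemia arrays (−1.26). Semaphorins, ephrins and their receptors gave 0 rises and 1 fall, Sema4f (−0.56), of 45 (2.22%, against 3.99% of all genes).

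Of 26 genes of gp130 and STAT3 signalling 8 rose (30.8%, against 5.72% of all genes) and 1 fell (3.85%, against 3.99%), with a median of 0.24. Osmr, the receptor of oncostatin M, had 185, 227 and 179.9 on the sham arrays and 1284, 1175 and 1259.9 on the ischemia arrays (2.48, SE 0.26), and Socs3, the inhibitor that closes this pathway, had 55.6, 101 and 50.6 on the sham arrays and 469, 559 and 340.5 on the ischemia arrays (2.28, SE 0.29). In both the groups were apart on every array. Junb (1.41), also among the bZIP factors, Stat3, Il6ra, Il6, Socs2 and Socs6 rose. Bcl6, a transcriptional repressor, had 1031, 1047 and 1019.9 on the sham arrays and 533, 543 and 439.7 on the ischemia arrays (−0.99). Chemokine and cytokine genes rose in 8 of 41 cases (19.5%, against 5.72% of all genes) and fell in 1 (2.44%, against 3.99%). The median change was 0.06, and 6 rose after quantile normalization. Cxcl1, which attracts neutrophils, had 16.8, 23.8 and 13.2 on the sham arrays and 388, 385 and 324 on the ischemia arrays (2.996, SE 0.16). Ccl3 had 24.6, 14.9 and 6.66 on the sham arrays and 151, 125 and 143 on the ischemia arrays (1.87), and Ccl2, which attracts monocytes, had 9.13, 19.3 and 21.1 on the sham arrays and 137, 101 and 93.1 on the ischemia arrays (1.55). Sham arrays of these 3 chemokines were all below an intensity of 32, so these changes are understated. Cxcl10 (1.52), Ccl17, Ccl4, Ccl7 and Cxcl2 also rose.

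NF-kB subunits and feedback genes rose in 6 of 27 cases (22.2%, against 5.72% of all genes) with 0 falls (median 0.25). Nfkbiz, a nuclear co-regulator of NF-kB, had 324, 351 and 309.5 on the sham arrays and 2512, 2654 and 1367 on the ischemia arrays (2.56, SE 0.20), with replicate 3 the lowest ischemia array. Rel (1.59), Icam1 (1.25), an adhesion molecule of endothelium, Bcl10 (0.99), Rela and Traf6 rose. Of 39 interferon-induced genes 8 rose (20.5%, against 5.72% of all genes) and 0 fell, with a median of 0.39 and 32 positive changes. Gbp3, a guanylate-binding protein, had 57.3, 69.9 and 43.5 on the sham arrays and 285, 279 and 345 on the ischemia arrays (1.92, SE 0.27), and Gbp2 had 70.3, 74.1 and 86.8 on the sham arrays and 271, 326 and 209 on the ischemia arrays (1.45). Ifit3 (1.12), Irgm1 (1.09), Gbp7, Irf9, Igtp and Trim25 rose too, and in Gbp2, Ifit3 and Irgm1 replicate 3 was the lowest ischemia array.

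Of 41 cytosolic and mitochondrial chaperones and co-chaperones 13 rose (31.7%, against 5.72% of all genes) and 0 fell (against 3.99%), with a median of 0.22. Of 33 chaperones of the endoplasmic reticulum (ER) and folding enzymes 0 rose and 0 fell in every fit (median −0.11). At the shares of all genes few calls would occur in a list of 33. In limma's fit of all arrays 1 of these 33 was higher and 4 were lower, where 9.59% and 8.88% of all genes were. Quantile normalization gave 1 fall in the cytosolic and mitochondrial list and 1 rise and 1 fall in the ER list. The difference between the lists was not tested. Hspb1, a small heat shock protein, had 932, 696 and 600.4 on the sham arrays and 5396, 5884 and 6824 on the ischemia arrays (2.98, SE 0.17). The co-chaperones Bag3 (225, 193 and 244 on the sham arrays and 1362, 1023 and 1459.95 on the ischemia arrays; 2.37) and Dnajb1 (1623, 1432 and 1333 on the sham arrays and 7842, 8232 and 6905 on the ischemia arrays; 2.36) rose with it, and the ischemia arrays of all these genes were clear of sham. Hspa1b, Hsph1, Hspb3, Dnajb4, Dnaja1, Hspa1l and Cct2 rose, as did Hspe1 and Hspd1, the mitochondrial chaperonin pair. Among the ER genes the largest change was in Pdia4, a disulfide isomerase, with 452, 506 and 389.9 on the sham arrays and 242, 293 and 354 on the ischemia arrays (−0.56, adjusted p = 0.0145 by limma), which lost its call in some fits.

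Targets of ATF4, the arm of the stress response that follows phosphorylation of eIF2α, rose in 13 of 32 cases (40.6%, against 5.72% of all genes). They had 0 falls and a median of 0.66. Chac1, which breaks down glutathione, had 189.8, 174 and 138 on the sham arrays and 1497, 1275 and 1671 on the ischemia arrays (2.93, SE 0.25). Ppp1r15a, which brings a phosphatase back to eIF2α, had 226, 217 and 179.7 on the sham arrays and 868, 827 and 817 on the ischemia arrays (1.86, SE 0.11). Both stood well apart from sham. Eif4ebp1, an inhibitor of cap-dependent translation, changed by 1.88 and Mthfd2, an enzyme of mitochondrial one-carbon metabolism, by 1.60, and ischemia replicate 2 was the lowest ischemia array in each. Sesn2, Ddit3, Ppp1r15b, Trib3, Slc3a2, Vldlr, Cebpg, Ddit4 and Atf4 itself rose. The aminoacyl-tRNA synthetases, which ATF4 also controls, gave 1 rise of 20 (5%, against 5.72% of all genes) and a median of 0.24, and 15 of 20 were positive. The rise was of Rars, with 893, 861 and 914 on the sham arrays and 1296, 1245 and 1563 on the ischemia arrays (0.60). Of 30 p53 targets and growth arrest genes 10 rose (33.3%, against 5.72% of all genes) and 1 fell (3.33%, against 3.99%), with a median of 0.32. Cdkn1a, the cyclin-dependent kinase inhibitor p21, had 411, 783 and 305 on the sham arrays and 2196, 2208 and 2568 on the ischemia arrays (2.25, SE 0.36), with sham replicate 2 the highest sham array, and Gadd45a had 117, 108 and 114 on the sham arrays and 567, 601 and 539 on the ischemia arrays (2.05).

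Genes for making ribosomes rose in 16 of 72 cases (22.2%, against 5.72% of all genes) and fell in 1 (1.39%, against 3.99%). Their median was 0.24, and 55 were positive. Ppan had 61.5, 79.2 and 96.2 on the sham arrays and 368, 226 and 371 on the ischemia arrays (1.65, SE 0.19), and Nop58, a core protein of the snoRNA complexes that modify ribosomal RNA, had 491, 515 and 456 on the sham arrays and 1186, 1114 and 1448 on the ischemia arrays (1.30, SE 0.16). Nip7 (1.31) and Riok2, a kinase of small subunit maturation (1.25), rose with Tsr1, Nmd3, Wdr43, Rrs1, Ddx47, Gnl3, Ddx21, Gar1, Riok1, Nol11, Utp4 and Utp3, and Imp3 fell. The cytosolic ribosomal proteins themselves gave 2 rises of 46 (4.35%, against 5.72% of all genes) and a median of 0.01. Rpl12 had 142, 193 and 147 on the sham arrays and 396, 395 and 562 on the ischemia arrays (1.32). Rps25 had 359, 377 and 358 on the sham arrays and 621, 806 and 1030 on the ischemia arrays (1.07). The 46 genes summed to 253148, 232324 and 259915 on the sham arrays, so the probe sets of these 2 genes were dim for the list. Of the mitochondrial ribosomal proteins 2 of 74 rose (2.7%, against 5.72% of all genes) and 10 fell (13.5%, against 3.99%), with a median of −0.14. Mrpl34 had 600.3, 501 and 616 on the sham arrays and 353, 337 and 345 on the ischemia arrays (−0.68) and Mrpl42 had 1746, 1428 and 1715 on the sham arrays and 1044, 1175 and 872 on the ischemia arrays (−0.65), all ischemia arrays below sham, and Mrpl36 (−0.57) and Mrpl18 (−0.53) fell likewise.

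Of the 9 genes of polyamine metabolism 4 rose (44.4%, against 5.72% of all genes) and 0 fell. Odc1, which makes putrescine and is the rate-limiting enzyme of synthesis, had 1362, 1199 and 1326 on the sham arrays and 2598, 2725 and 2983 on the ischemia arrays (1.08), and Sat1, the rate-limiting enzyme of breakdown, had 1183, 1648 and 1206 on the sham arrays and 3244, 3261 and 3001 on the ischemia arrays (1.23). Azin1 (0.63) and Srm (0.56) also rose, and 5 of 9 members had a positive change. Of 31 NRF2 targets and metallothioneins 6 rose (19.4%, against 5.72% of all genes) and 1 fell (3.23%, against 3.99%), with a median of −0.07. Slc30a1, a zinc exporter, had 96.7, 68.7 and 111 on the sham arrays and 283, 251 and 359.5 on the ischemia arrays (1.41), and Srxn1, which repairs peroxiredoxins, changed by 1.24 and Txnrd1, thioredoxin reductase, by 0.98. Replicate 3 was the highest ischemia array for each of these and for Hmox1. The metallothionein genes Mt1 and Mt2 rose, and Gstp1 fell. Clock and D-box genes rose in 10 of 20 cases (50%, against 5.72% of all genes) with 0 falls (median 0.59). Per1 had 668, 582 and 575 on the sham arrays and 1469, 1569 and 1438 on the ischemia arrays (1.25, SE 0.14) and Per2 had 457, 429 and 358 on the sham arrays and 958, 1042 and 1001 on the ischemia arrays (1.21), with no overlap between groups. Cry1 (1.32), Cry2, Rorb, Bhlhe40, Npas2, Nr1d1 and Arntl rose. The time of day of collection was not stated in the sources used, and its part in these changes was not tested.

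**Figure D3:**
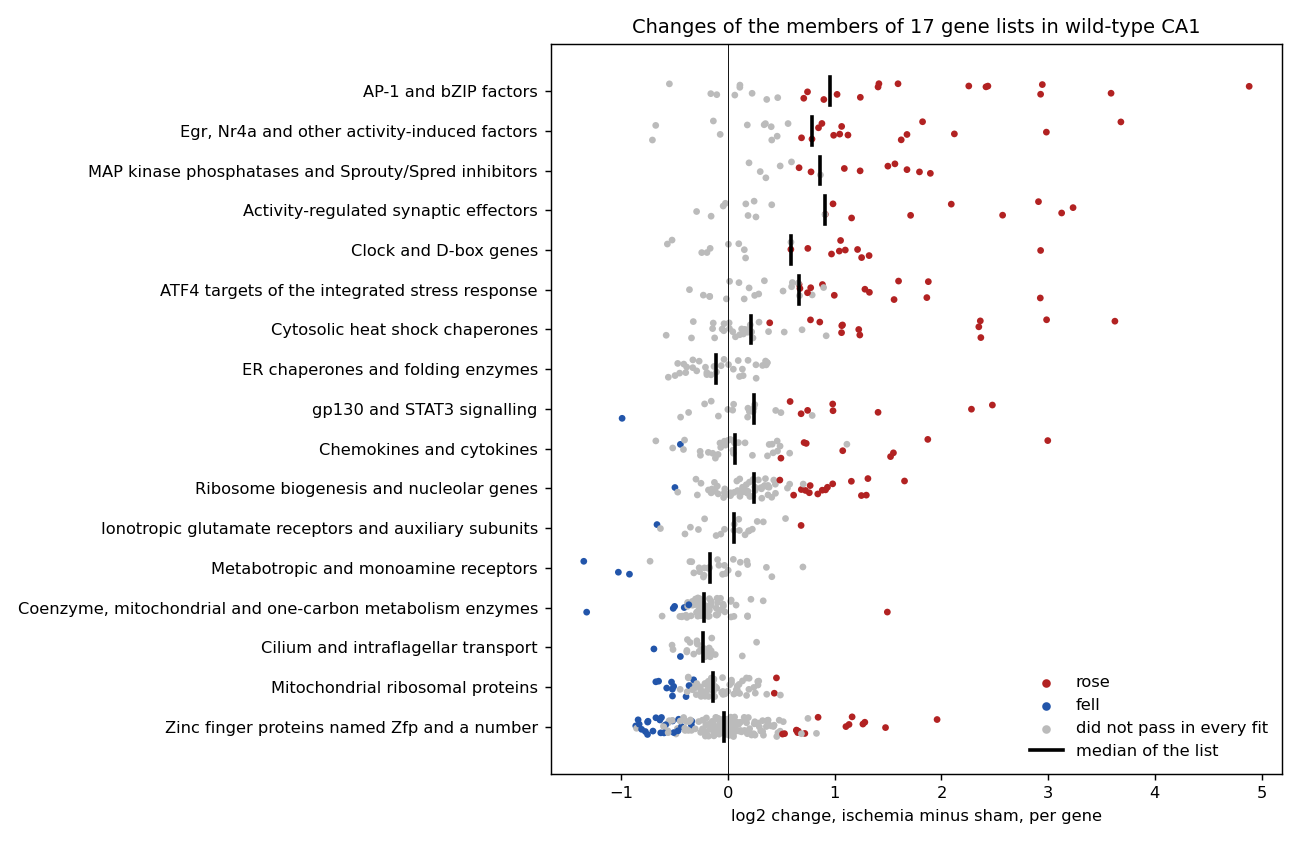
Each point is the log2 change, ischemia minus sham, of a gene in 17 of the gene lists; red points rose, blue points fell, grey points did not pass in every fit, and the black bar is the median of the list. AP-1 and bZIP factors have a median of 0.96 and ER chaperones one of −0.11.

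Factors that destroy short-lived mRNAs mostly did not pass: 2 of 23 rose (8.7%, against 5.72% of all genes) and 0 fell (median 0.24). In limma's fit of all arrays 7 were higher and 2 lower. The 2 that rose were Zfp36, which targets AU-rich mRNAs (105, 121 and 104 on the sham arrays and 508, 609.8 and 451 on the ischemia arrays; 1.96), and Btg2, which recruits deadenylases (266, 388 and 385 on the sham arrays and 930.4, 1183 and 1127 on the ischemia arrays; 1.56). Of 41 histone lysine methylation enzymes 4 rose (9.76%) and 2 fell (4.88%), against 5.72% and 3.99% of all genes. The demethylase gene Kdm7a changed by 1.35, the Polycomb methyltransferase gene Ezh2 by 0.87, Jmjd1c by 0.86 and Kmt5b by −0.83. DNA repair genes gave 1 rise, Ercc3 (0.46), and 1 fall, Mlh3 (−0.54), of 57, below the shares over all genes, and quantile normalization gave 3 falls.

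The largest falls were smaller than the largest rises. Slco1a4, an organic anion transporter of brain endothelium, had 1071, 828 and 1215 on the sham arrays and 229.5, 352 and 483 on the ischemia arrays (−1.51, SE 0.22, adjusted p = 0.00089). Lct, a marker of dentate granule neurons, had 1259, 1084 and 1395 on the sham arrays and 407, 423 and 434 on the ischemia arrays (−1.49, SE 0.15), with ischemia arrays in a narrow range. Crebzf had 392, 431 and 414 on the sham arrays and 124, 125 and 158 on the ischemia arrays (−1.41, SE 0.12). None of these ischemia arrays reached the lowest sham array. Rasl10a, a Ras-like GTPase, had 707, 605 and 746 on the sham arrays and 194, 302 and 253 on the ischemia arrays (−1.36), and Pnrc1, a coactivator of nuclear receptors, had 2097, 1981 and 1950.4 on the sham arrays and 923, 1081 and 716 on the ischemia arrays (−1.14). Rnpc3, a protein of the minor spliceosome, had 362, 429 and 388 on the sham arrays and 188, 162 and 153 on the ischemia arrays (−1.09). H2aw, a histone H2A gene, had 1034, 895 and 986 on the sham arrays and 514, 483 and 331 on the ischemia arrays (−1.10). The other members of the 20 largest falls, apart from Erbb3, P2ry12, Pdgfra, Sirt4 and Fzd2, which are described with their lists, were Poglut2 (−1.38), Depdc7 (−1.16), Pcdhb7 (−1.16), Mis18a (−1.15), Mfap2 (−1.13), Lrrn1 (−1.11), Saysd1 (−1.09) and B3galnt2 (−1.08).

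Metabolic genes of the mitochondrion mostly had small negative changes. Of 64 coenzyme, mitochondrial and one-carbon metabolism enzymes 1 rose and 5 fell (7.81%, against 3.99% of all genes), with a median of −0.23 and 10 positive changes, where 44.1% of all genes had a positive change; 9 fell after quantile normalization and 7 after centring on the median. Sirt4, a mitochondrial sirtuin, had 127, 105 and 113 on the sham arrays and 10.3, 25.4 and 51.4 on the ischemia arrays (−1.32, SE 0.21). Ivd, an enzyme of leucine breakdown (819.9, 704 and 767 on the sham arrays and 499, 592 and 489.7 on the ischemia arrays; −0.51), and Hadhb, of fatty acid oxidation (1672, 1649 and 1536 on the sham arrays and 1039, 1199 and 1174 on the ischemia arrays; −0.50), also fell, with Idh2 and Pdhb; by the mean of their probe sets Ivd (−0.38, adjusted p = 0.055 by limma) and Hadhb (−0.24, adjusted p = 0.103) did not pass. The member that rose was Pdk4, the kinase that switches off pyruvate dehydrogenase, with 288, 367 and 242 on the sham arrays and 987, 944 and 751 on the ischemia arrays (1.49, SE 0.24). Mthfd2, a one-carbon enzyme that rose (1.60), was counted with the ATF4 targets and is outside this list. Complex I subunits gave 2 falls of 33 (6.06%, against 3.99% of all genes), Ndufs7 (−0.41) and Ndufb3 (−0.38), and 0 rises (median −0.17). Centring on the median left 0 falls among them. Proteasome subunits gave 1 fall of 38 (2.63%), Psmd13 (−0.38), and a median of −0.03.

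Genes of the primary cilium, the antenna-like organelle of neurons and glia, also mostly had small negative changes: 2 of 28 had a positive change and the median was −0.24. In every fit 2 fell (7.14%, against 3.99% of all genes), and quantile normalization gave 5 falls. In limma's fit of all arrays 8 of the 28 were lower, where 8.88% of all genes were. Ift80 had 308, 353 and 311 on the sham arrays and 174, 179 and 212 on the ischemia arrays (−0.69) and Ift140, likewise of intraflagellar transport, had 300.5, 357 and 344 on the sham arrays and 231, 257 and 221 on the ischemia arrays (−0.45), with ischemia arrays below sham in both. Zinc finger genes named Zfp with a number, many of them repressors of the KRAB class, fell in 23 of 171 cases (13.5%, against 3.99%) and rose in 15 (8.77%, against 5.72%), with a median of −0.04. Zfp703 (268, 241 and 256 on the sham arrays and 746, 665 and 905 on the ischemia arrays; 1.48), Zfp593 (1.28) and Zfp574 (1.26) had the largest changes after Zfp36. Of 49 cadherins and protocadherins 5 rose and 5 fell (10.2% each way, against 5.72% and 3.99% of all genes): Pcdh8 had 2134, 2178 and 2397 on the sham arrays and 6887, 4939 and 5894 on the ischemia arrays (1.38), Pcdh7 changed by 1.29 and Pcdh1 by 0.99, while Pcdhb7, of the clustered group, had 632, 721 and 548 on the sham arrays and 254, 292 and 249 on the ischemia arrays (−1.16). Of 254 solute carriers 19 rose (7.48%) and 10 fell (3.94%), shares near those of all genes, with Slc15a3 (1.59) and Slc35f6 (1.12) next to Slc10a6 and Slc30a1. Of 54 Rab and Arl GTPases 1 rose (1.85%), Rab30 (0.97), and 2 fell (3.7%), Rab3c (−0.64) and Rab3d (−0.64).

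Markers of cell types were read as a check of the tissue, and in bulk tissue fewer cells of a type and less RNA per cell cannot be told apart. Markers of CA1 pyramidal neurons were present on all arrays, all 5 had a negative change, and 0 fell in every fit (2 in limma's fit of all arrays; median −0.60). Wfs1 had 2708, 2126 and 1922 on the sham arrays and 1625, 1538 and 1239.5 on the ischemia arrays (−0.60, adjusted p = 0.0206 by limma), and Neurod6 had 3658, 3046 and 3071 on the sham arrays and 2115, 2069 and 1079.9 on the ischemia arrays (−0.94, adjusted p = 0.128). The groups did not overlap for either gene, and ischemia replicate 3 was the lowest array for both. The summed intensity of the CA1 markers was 13247, 10716 and 10624 in sham and 8533, 8544 and 6138 in ischemia arrays. Markers of CA2 and CA3 neurons gave 0 calls of 6, with the largest change in Pcp4 (−0.30, adjusted p = 0.0711), and interneuron markers 0 of 14, with the largest in Vip (−0.62, adjusted p = 0.0427, lost in some fits). Listed markers of dentate granule neurons were read too. Prox1, their defining transcription factor, was dim in sham tissue, with 36.3, 52.2 and 61.9 on the sham arrays and 134, 98.2 and 181 on the ischemia arrays (1.03). Calb1 had 3243, 2957 and 3339 on the sham arrays and 2083, 2211 and 1943 on the ischemia arrays (−0.61). Whether Calb1 is particular to these neurons in this tissue was not tested. Lct and Calb1 fell while Prox1 rose, so these markers did not move in 1 direction. The summed intensity of the dentate list, which includes Calb1, was 6447, 5653 and 7535 in sham and 4450, 4736 and 4318 in ischemia arrays. Of 11 general markers of excitatory neurons 1 rose (9.09%, against 5.72% of all genes), the neurofilament gene Nefm (0.81), and 0 fell.

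Among microglial markers, 4 of 15 fell (26.7%, against 3.99% of all genes) and 0 rose (median −0.13), with 3 falls after centring on the median. P2ry12, a purine receptor by which microglia sense ATP and ADP, had 339.9, 304 and 309 on the sham arrays and 99.99, 126 and 90.97 on the ischemia arrays (−1.35, SE 0.17). Tmem119 had 345, 359 and 305 on the sham arrays and 152, 152 and 192 on the ischemia arrays (−0.90), Gpr34 had 147, 137 and 136 on the sham arrays and 71.8, 69.4 and 53.3 on the ischemia arrays (−0.83), and Csf1r, the receptor needed for microglial survival, had 3166, 2829.8 and 3235 on the sham arrays and 2420.4, 2444 and 2223 on the ischemia arrays (−0.38). The groups were apart for all of them. C1qa (0.03, adjusted p = 0.907) and Tyrobp (0.13, adjusted p = 0.386), chosen after their values were seen, had changes near 0. The summed microglial intensity was 8522, 8097 and 8649 in sham and 7657, 7147 and 7119 in ischemia arrays. Astrocyte markers gave 2 rises of 14 (14.3%, against 5.72% of all genes) and 0 falls. Of the 2, Sox9 had 249, 228 and 243 on the sham arrays and 503, 519 and 571 on the ischemia arrays (1.05). The filament gene Gfap had 1025, 953 and 1208 on the sham arrays and 1717, 1585 and 2223 on the ischemia arrays (0.77). Of 11 oligodendrocyte markers 2 fell (18.2%, against 3.99% of all genes), 1 had a positive change and the median was −0.14. The receptor gene Erbb3 had 365, 345 and 295 on the sham arrays and 95.4, 116 and 99.9 on the ischemia arrays (−1.43). Ugt8a, an enzyme of myelin lipid synthesis, had 1446, 1433 and 1369 on the sham arrays and 710.1, 855 and 577 on the ischemia arrays (−0.97). The myelin genes Mbp, Mog, Mag and Cnp did not pass. Of 6 markers of oligodendrocyte precursors 2 fell (33.3%, against 3.99% of all genes), 1 had a positive change and the median was −0.235. Pdgfra had 745, 687 and 792 on the sham arrays and 294, 346 and 376 on the ischemia arrays (−1.06), and Sox10 changed by −0.93.

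Endothelial markers split in a similar way, with 4 falls (23.5%, against 3.99% of all genes) and 1 rise (5.88%, against 5.72%) among 17 (median −0.21). Besides Slco1a4, the efflux pump gene Abcb1a had 384, 321 and 386 on the sham arrays and 176, 177 and 219 on the ischemia arrays (−0.83), Sox17 had 236, 187 and 275 on the sham arrays and 98.1, 99.8 and 118 on the ischemia arrays (−0.94), and Tek fell. Cdh5, the adhesion protein of endothelial junctions, had 124, 126 and 96.7 on the sham arrays and 246, 258 and 227 on the ischemia arrays (0.91, SE 0.10), with the groups apart in the other direction. Cldn5 (−0.14), Pecam1 (0.12) and Slc2a1 (−0.02), chosen after their values were seen, did not pass (adjusted p = 0.754, 0.482 and 0.95 by limma). Without the probe sets marked as shared between transcripts, Sox17 did not pass (−0.34, adjusted p = 0.0656). Of 17 transporters and junction genes of the blood-brain barrier 2 rose (11.8%, against 5.72% of all genes) and 2 fell (11.8%, against 3.99%). The lactate carrier gene Slc16a1 had 978, 848 and 799.9 on the sham arrays and 1565, 1543 and 1622 on the ischemia arrays (0.83). The transferrin receptor gene Tfrc (0.77) rose as well, and the falls were of Slco1a4 and Abcb1a. Pericyte markers gave 0 calls in every fit of 11, with the largest change in Des (0.89, adjusted p = 0.0189).

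Markers of tissue next to CA1 differed widely between the ischemia pools. Folr1, a defining marker of choroid plexus, had 852, 796 and 612 on the sham arrays and 73.4, 641 and 1247 on the ischemia arrays, and Aqp1 had 237, 257 and 229 on the sham arrays and 27.7, 240.5 and 539.9 on the ischemia arrays. Ischemia replicate 1 was far below every other array for these genes, and the groups overlapped (−0.79, adjusted p = 0.565 for Folr1). The choroid plexus markers Kl (1202, 1316 and 749 on the sham arrays and 187, 1043 and 1154 on the ischemia arrays) and Slc4a5 (217, 187 and 174 on the sham arrays and 35.2, 202 and 410.1 on the ischemia arrays) had the same low array. The summed intensity of 6 choroid plexus and ependymal markers was 22352, 18440 and 24962 in sham and 15091, 18626 and 19774 in ischemia arrays. The fibroblast marker with the largest change, Col3a1, had 32.4, 50.5 and 36.4 on the sham arrays and 109, 58.8 and 189 on the ischemia arrays (0.99, adjusted p = 0.0655), and 0 of 10 such markers passed in every fit. Markers of neutrophils gave 0 calls of 10, with the largest change in S100a8 (72.2, 185 and 52.2 on the sham arrays and 181, 158 and 144 on the ischemia arrays; 0.63), and summed to 372, 684 and 356 in sham and 464, 544 and 529 in ischemia arrays. Red blood cell markers gave 0 calls of 3, with the largest change in Hba-a1 (−0.33). Of 12 markers of monocytes, macrophages and lymphocytes 1 rose (8.33%, against 5.72% of all genes). It was the lysosomal gene Cd68, which microglia express as well, with 125, 131 and 128 on the sham arrays and 239.9, 194 and 325 on the ischemia arrays (0.81).

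**Figure D4:**
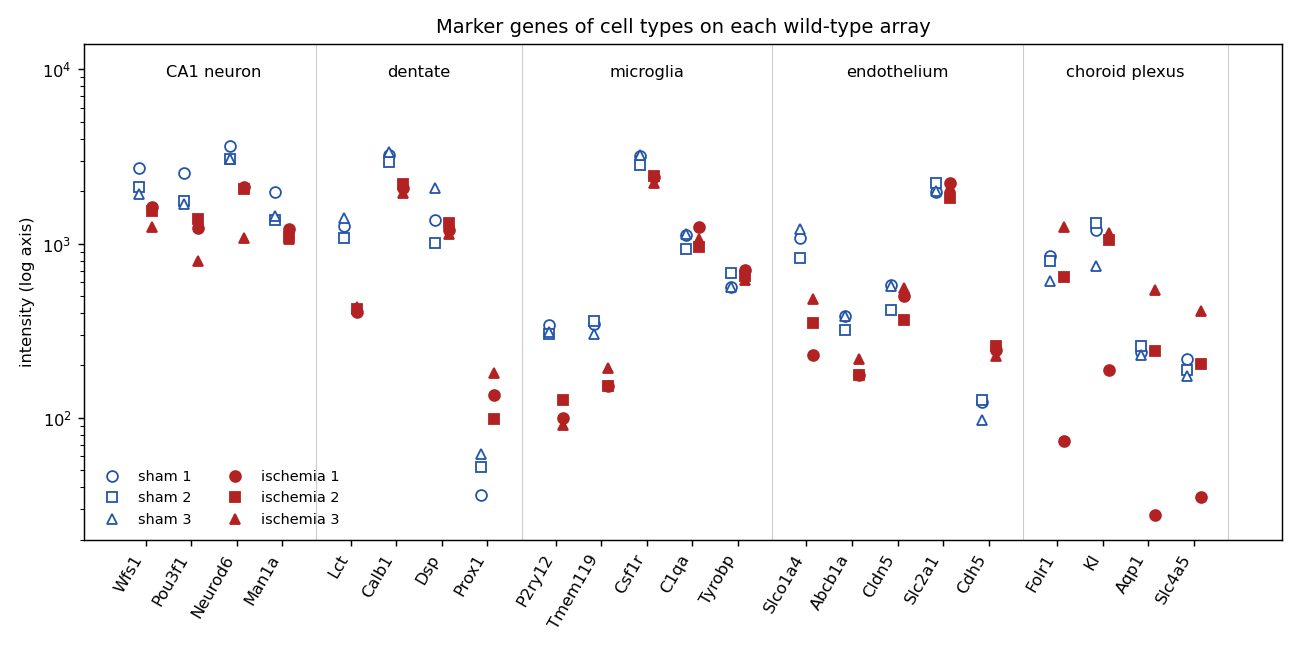
Intensity (log axis) of marker genes of 5 cell types on each wild-type array; open blue symbols are sham and filled red symbols ischemia, and the shape gives the replicate. P2ry12 and Tmem119 lie lower on all ischemia arrays while C1qa and Tyrobp do not, and ischemia replicate 1 (filled circle) lies far below the others in the choroid plexus genes, at 73.4 for Folr1.

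Promoters were compared for the 7936 of 12394 genes with exactly 1 entry in the RefSeq promoter table, over 300 bases from 250 before to 50 after the start. They included 431 of the genes that rose and 336 that fell. The motifs were chosen after results were seen, both strands were searched, and shares are descriptions without a test. The CRE core TGACGT was found in 19.5% of promoters of genes that rose, 10.7% of those that fell and 10.7% of all, and the full CRE, TGACGTCA, which contains it, in 5.1%, 1.49% and 2.78%. Among the 22 genes that rose with a full CRE were Ppp1r15a, Btg2, Ppan, Dusp1, Dusp8 and Plk2. An E-box (CACGTG) was found in 13.5% of the genes that rose and 9.38% of all, the NF-kB site in 13.9% and 9.69%, and the CArG box bound by SRF in 2.78% and 1.5%. A C/EBP-ATF element was found in 3.94% and 2.61%, and the AP-1 site TGANTCA in 6.96% and 5.97%. A GC box (GGGCGG) was in 71.9% of genes that rose, 58.6% of those that fell and 57.9% of all. Base composition moved with these shares: the median GC content was 62.7% in genes that rose, 59.5% in those that fell and 59.3% in all, and its part in the motif shares was not tested. The ETS site CCGGAAG differed in the other direction, at 15.5% of genes that rose, 21.4% of those that fell and 15.5% of all, and the TATA box TATAAA was in 10.2%, 6.25% and 10.7%.

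The heat shock element was found in 7.42% of promoters of genes that rose, 6.55% of those that fell and 6.43% of all. Within the chaperone list it was present in 6 of 7 chaperone genes that rose and had an entry, Hspa1a, Hspa1b, Hspb1, Bag3, Hspb3 and Hspe1, and in 3 of 18 that did not pass, Chordc1, Fkbp4 and Hspb8. The Hspa1a element is the capital run GAAGATTC in the sequence given above.

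**Figure D5:**
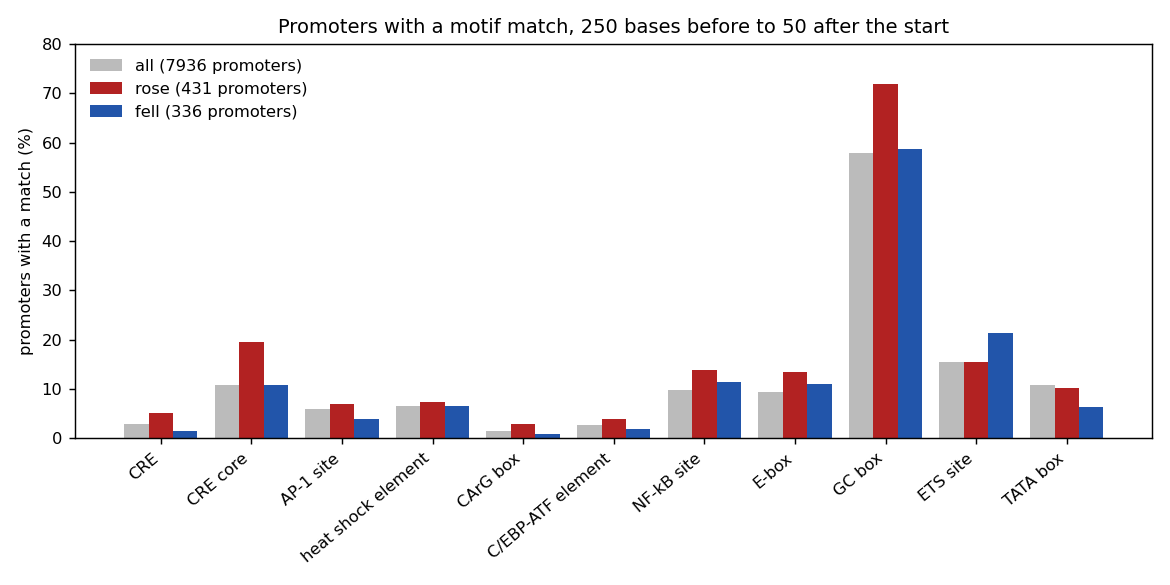
Share of promoters (%) with at least 1 match to each motif, for all 7936 promoters (grey), the 431 of genes that rose (red) and the 336 of genes that fell (blue). The CRE core is at 19.5% in genes that rose and 10.7% in all, and the GC box at 71.9% and 57.9%.

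Different probe sets of a gene did not always move together. Of the 337 genes that rose and had several probe sets, another probe set rose as well in 150, and in 1 another fell; of 224 that fell, another fell in 53 and rose in 4. In 8 genes 1 probe set rose and another fell. For Dio2, which activates thyroid hormone, the brightest probe set had 992, 1177 and 925 on the sham arrays and 607, 631 and 441 on the ischemia arrays (−0.85), while another had 139, 145 and 114 on the sham arrays and 364, 369.8 and 456 on the ischemia arrays (1.38). Lrrtm1, a synaptic adhesion protein, changed by −0.93 on its brightest probe set and by 1.06 on another, and Dtna, of the dystrophin complex, by 1.01 and by −0.64 on another. Kmt5b changed by −0.83 and by 0.57, and Pitpnc1 by −0.73 on a probe set that fell and by 1.07 on another. With the mean of all probe sets, Dio2 changed by 0.43 (adjusted p = 0.0528 by limma) and Dtna by −0.02 (adjusted p = 0.921), against the sign of the brightest probe set in each.

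Most of the wild-type response had the same direction in SUMO-KD mice, whose sham and ischemia arrays are separate samples. Of the 709 genes that rose, 701 had a positive change there and 500 passed as higher in limma's fit of all arrays, where 6.08% of all genes were higher; of the 495 that fell, 488 had a negative change and 297 passed as lower, where 4.62% of all genes were. In the opposite direction, 1 of the 709 passed as lower in SUMO-KD and 0 of the 495 passed as higher. Each genotype's change was estimated with the same pooled spread. Values for named genes were 4.32 for Atf3, 4.41 for Fos, 3.92 for Hspa1a, −1.14 for Slco1a4 and −1.02 for P2ry12. Some named genes did not pass in SUMO-KD, and 7 are given as examples. Acan changed by 0.79 (adjusted p = 0.129 by limma), Inhba by 0.17 (0.723), Rgs2 by 0.46 (0.073) and Gbp3 by 0.41 (0.403). Irgm1 changed by 0.14 (0.697), Prox1 by 0.20 (0.62) and Depdc7 by −0.19 (0.599). The difference between the genotypes did not pass for any of these 7 genes (adjusted p = 0.425, 0.229, 0.145, 0.45, 0.43, 0.719 and 0.468 for the interaction). Further named genes did not pass in SUMO-KD either, such as Ezh2 (0.19, adjusted p = 0.521 by limma) and Rab3c (0.004, 0.993).

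The change differed between genotypes in 2 genes (0.0161% of 12394; 768 had an unadjusted p under 0.05 in limma's interaction test). Both encode transcription factors of developing and newborn neurons, Sox11 and Neurod1, and both were named after their values were seen. Sox11 had 181, 230.5 and 209 on the sham arrays and 845, 529 and 768 on the ischemia arrays in wild-type, and 667, 569.8 and 715 on the sham arrays and 414, 524 and 501 on the ischemia arrays of SUMO-KD mice. The wild-type sham arrays were the lowest group and did not overlap the SUMO-KD sham arrays. The change was 1.62 in wild-type and −0.42 in SUMO-KD (interaction −2.04, adjusted p = 0.0219). Neurod1 had 992, 925 and 1071 on the sham arrays and 1325, 1356 and 1534 on the ischemia arrays in wild-type, and 1645, 1368 and 1697 and 894, 708 and 870.2 on the sham and ischemia arrays of SUMO-KD mice, with changes of 0.48 and −0.91 (interaction −1.39, adjusted p = 0.0219). The wild-type change of Neurod1 did not pass in every fit. Leaving out 1 array gave from 0 to 5 such genes, and 5 on omission of wild-type ischemia replicate 2. There were 0 on omission of any sham array of wild-type mice, of ischemia replicate 3 of that genotype, of any ischemia array of SUMO-KD mice, or of replicates 1 or 3 of their sham arrays. Omission of either remaining array gave 3.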

How the data were processed

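The authors deposited linear intensity values, 1 for every probe set on every array. Partek 6.6 and RMA appear in the submitters' processing notes without a stated role. The intensity values were not on a log2 scale, and the mean of every array after removal of 2% of the values at each end was 500.2, so the form differs from RMA output and the scaling step is unknown from the sources used. Gene symbols came from GEO's platform annotation: 20393 of 22690 probe sets had 1 symbol, 691 had several and 1606 had none, 64 of them controls; 4958 genes had several probe sets, and 20364 entries matched the reference gene table with 0 symbols updated.

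Group means of all 4 groups were fitted to log2(intensity + 32) with limma 3.58.1 in R 4.3.3 (lmFit, eBayes), without a filter on dim genes. The comparison, its members and the 58 gene lists (34 pathways, 16 cell types, 8 name patterns) were chosen with earlier results of these data known. Named genes included the 20 largest rises and falls with an intensity mean of at least 100 in the higher group and without overlap of the groups. Up to 4 changed members of each list (where none changed, the largest change) and up to 5 genes with opposed probe sets were also named. Where the remaining members of a list that rose or fell are given, all are given except those named elsewhere in the text. A gene can belong to several lists and is counted in each, so the lists are not separate sets. The offset was 16, 64 or none in alternatives, which also covered the choice of probe sets, dim genes, scaling, the variance model, a replicate block and omission of each array. The procedure was tested on simulated data. The number of arrays limits the precision.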

Additional observations from a re-analysis of the deposited data

Results flagged for a closer look

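Probe sets outside the named genes also changed. Of 1555 probe sets with no listed gene, 60 rose and 26 fell in every fit, and of 691 that list several genes, 21 rose and 15 fell. Both kinds had smaller shares of rises and of falls than the 12394 genes, of which 5.72% rose and 3.99% fell. Among the probe sets without a listed gene, the 2 largest rises were 2.22 and 2.18 and the 2 largest falls −1.16 and −1.12 on the log2 scale.

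The ischemia response differed between genotypes in a test of the difference itself for Sox11 (interaction −2.04, SUMO-KD minus wild-type) and Neurod1 (−1.39). Neither passed in every fit that left out an array.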

How the results depend on the processing

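With the wild-type arrays alone, 432 genes rose, 150 fell and 663 were lower in the fit of all arrays. Every probe set by itself gave 1096 rises and 1865 higher in the fit of all arrays. The other settings that kept all arrays left these counts within 1.5 times, among them quantile normalization (693 rises, 615 falls) and centring on the median (699, 505). Of the genes reported, 671 rises and 489 falls were shared with quantile normalization. The share of calls that were rises was 58.9% as reported, 53% after quantile normalization, 58.1% after centring and 74.2% for the wild-type arrays alone. Leaving out 1 array gave 832 to 1206 higher and 693 to 1101 lower genes, and the lower count moved by over 1.5 times without wild-type sham replicate 1 (714) or 3 (732) or wild-type ischemia replicate 1 (693). The genotype difference, with alternatives chosen after seeing the data, held for 0 genes without an offset, 1 with the replicate block and 0 to 5 with an array left out. Dio2 (0.43) and Dtna (−0.018) reversed when all probe sets of a gene were averaged, under which 166 of 177 named genes kept direction and call.

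Same-numbered sham and ischemia arrays did not deviate together (correlations 0.073, −0.054 and −0.117), so the numbers were not taken to pair the samples. With the number as a replicate block, 627 genes rose and 345 fell, and 1204 were higher and 1090 lower in the fit of all arrays. The cause of these shifts was not tested. Dim genes are limited by signal over background, since 22.4% to 27.6% of probe sets lay below 32.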
